A study of Mus musculus with 8 samples.

Results

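The genes described here encode aminoacyl-tRNA synthetases, the enzymes that load each amino acid onto its transfer RNA. They were taken by gene symbol from a table of 21692 genes, and 36 of 36 symbols were found: 20 genes for enzymes of the cytosol and 16 for enzymes of mitochondria, whose symbols carry the suffix 2. Gars and Kars serve both compartments from 1 gene and were counted as cytosolic, as was Qars. The family was selected on measured values, namely the fold changes of its genes between OPE and vehicle, which were known when it was chosen; no threshold was applied to single genes. Its fold changes and counts therefore describe these libraries and are not independent support for a difference.

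RNA came from forelimb buds of CD1 mouse embryos of gestation day 13, kept in culture for 24 h. One group was cultured with organophosphate esters (OPE), a class of flame retardants and plasticisers, mixed after their occurrence in Canadian house dust and diluted 1 in 300000. The other was cultured with the vehicle alone, dimethyl sulfoxide (DMSO). Each group had 4 libraries, here called OPE 1 to 4 and vehicle 1 to 4, and the labels do not say whether these came from separate litters or cultures, so p-values measure only the spread between these samples, which may be technical.

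Cells use a separate set of synthetases in each compartment. The cytosolic enzymes feed the ribosomes that make nearly all cell proteins, and some of them sit together in the multisynthetase complex. The mitochondrial enzymes are made from nuclear genes, imported, and serve only the proteins encoded by mitochondrial DNA. When amino acids run short or the endoplasmic reticulum is stressed, kinases phosphorylate the initiation factor eIF2alpha. Translation of the transcription factor ATF4 then goes up, and ATF4 induces genes for amino acid synthesis and transport as well as many cytosolic synthetase genes.

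The depth, as reads counted to genes, was 14986793 to 21806141 per OPE library and 17549560 to 22006738 per vehicle library. All 36 genes passed the filter on low counts, with at least 153 reads in any library (Pars2) and up to 11562 (Lars2). In a principal component analysis of log2 CPM (read counts scaled to library size by TMM) the first component set OPE 3 apart. On the second component OPE 1 lay highest, at 43.9. The other OPE libraries (-2.77 to 13.6) also lay above all vehicle libraries (-23.2 to -12.8) on it. Values with and without OPE 1 and OPE 3 are given below. The limb and cartilage markers were present in both groups: Tbx5, a forelimb transcription factor, had a mean of 308 CPM in the OPE libraries and 284 CPM in the vehicle libraries, and the hindlimb factor gene Pitx1 had means of 3.52 CPM with OPE and 3.32 CPM with vehicle. No cell type was separated. In bulk RNA, fewer cells of a type and less RNA per cell cannot be told apart.

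Per unit of gene length, the cytosolic genes were expressed within a narrow range and most mitochondrial genes lay below it. The median level was 39.2 FPKM (reads per kilobase of gene, scaled to the library total) with OPE and 30.9 FPKM with vehicle for the cytosolic genes. For the mitochondrial genes it was 8.85 FPKM with OPE and 8.63 FPKM with vehicle, and for all tested genes it was 8.09 FPKM with vehicle. In the vehicle libraries the cytosolic levels ran from 20.9 ± 1.32 FPKM for Cars, the cysteine enzyme, to 68.6 ± 1.98 FPKM for Kars, the lysine enzyme that also serves mitochondria (mean ± SD, n = 4 here and below). Gars, the glycine enzyme of both compartments, was next with 80.0 ± 17.1 FPKM in OPE libraries and 58.8 ± 3.10 FPKM in vehicle libraries. Nars (asparagine) and Qars (glutamine) followed with vehicle levels of 51.6 ± 1.60 and 51.0 ± 1.58 FPKM, a difference smaller than their spread.

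Among the mitochondrial genes 15 of 16 had vehicle levels from 1.36 ± 0.150 FPKM (Mars2, methionine, with a deposited gene length of 11294 bases) to 19.9 ± 0.847 FPKM (Hars2, histidine). In the vehicle means all 15 lay below the lowest cytosolic gene, Cars, but Hars2 differed from it by less than the SD of Cars. With OPE, Hars2 (20.9 ± 1.10 FPKM) lay above the cytosolic Wars (20.3 ± 2.38 FPKM), also within their spread. Lars2, the mitochondrial leucine enzyme, had 125 ± 13.7 FPKM with OPE and 118 ± 34.0 FPKM with vehicle, above every cytosolic gene in both groups. It read 452, 552, 474 and 504 CPM in OPE 1 to 4, against 553, 259, 472 and 513 CPM in vehicle 1 to 4. Vehicle 2 held the low value, and the groups overlapped.

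**Figure D1:**
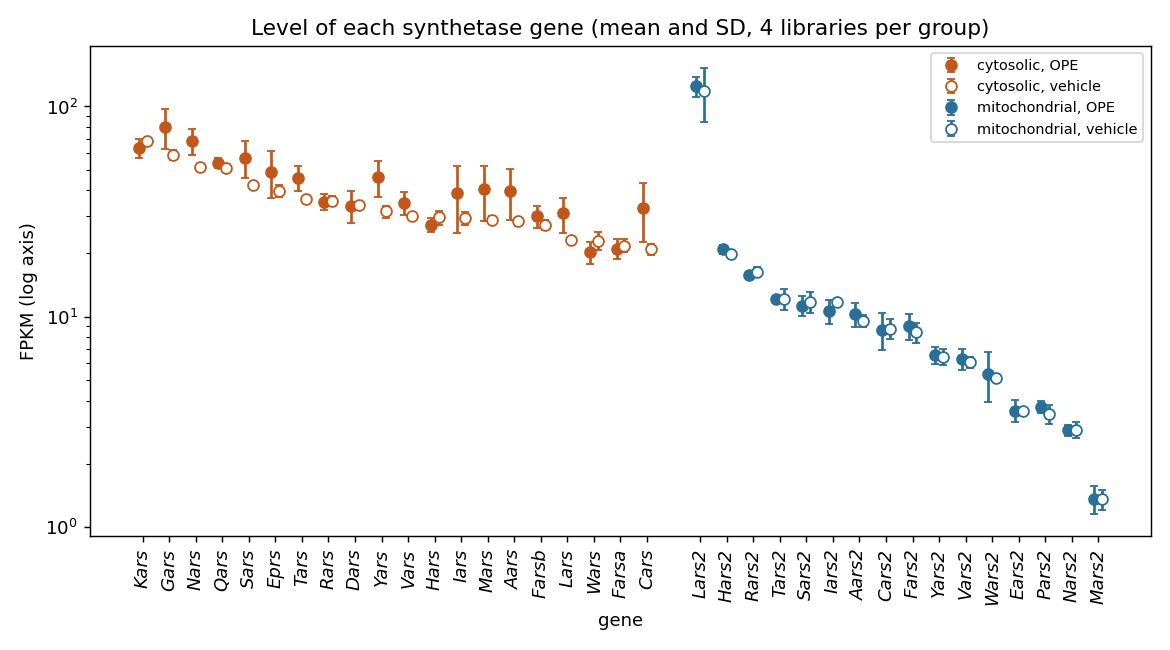
Level of each synthetase gene in FPKM on a log axis, as mean and SD over 4 OPE libraries (filled) and 4 vehicle libraries (open), in order of the vehicle level within each compartment. Cytosolic genes lie between 20.9 and 68.6 FPKM with vehicle, and the mitochondrial genes other than Lars2 between 1.36 and 19.9 FPKM.

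The vehicle libraries agreed closely on the cytosolic genes. Their coefficient of variation over the 4 vehicle libraries had a median of 4.3% (2.07% for Vars to 9.5% for Wars), against 8.4% for the mitochondrial genes (2.78% for Iars2 to 29.2% for Lars2) and 9.65% for all genes tested. Most mitochondrial genes had fewer reads, and the part of counting error in this gap was not tested.

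The promoters were searched for the C/EBP-ATF composite element, the sequence at which ATF4 binds with a C/EBP partner. RefSeq promoters (assembly GRCm38.p6, 250 bases before to 50 after the start) were given for 27 of the 36 genes. The motif TGATGNAA, read on both strands with N for any base, was present in 5 of 13 cytosolic genes, 0 of 14 mitochondrial genes and 4.13% of 17492 protein-coding genes. The longer form TGATGNAAT, which contains the shorter one, was present in 3 of the 13, Gars and Iars among them, and in 0.926% of protein-coding genes. The windows of 4 of the 5 genes are shown. The motif was searched for with the contrast known, so it is not independent support for a cause of the expression values. In the windows 10 bases flank each match, the strand is that of the gene, and capitals mark the motif or its reverse complement.
Gars, chr6:55037960-55037988, plus strand: tggctgcgctATTTCATCAtgcaccgggc
Iars, chr13:49682126-49682154, plus strand: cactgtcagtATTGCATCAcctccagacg
Tars, chr15:11399656-11399683, minus strand: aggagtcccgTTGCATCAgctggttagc
Yars, chr4:129189896-129189923, plus strand: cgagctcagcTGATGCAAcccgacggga
For comparison, the same 8-base match was found in 7 of 24 genes of the ATF4 pathway list described below. The longer form, which the capitals mark in the next window, was found in 2 of these 24. Among them is Nupr1, at chr7:126625563-126625591 on the minus strand: aaagggccagATTGCATCAgacagggctt. A match is a description of letters and not a measured binding site. No promoter was given for Cars, Hars, Lars, Nars, Rars, Vars, Wars, Hars2 and Pars2.

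With OPE, none of the 20 cytosolic genes reached an adjusted p under 0.05 in edgeR's quasi-likelihood test, with Benjamini-Hochberg adjustment over all 15517 genes tested. The smallest adjusted p was 0.0734. Over all genes 0.477% passed in either direction. At an unadjusted p under 0.05 there were 12 of the 20, all higher with OPE, against 5.85% of all genes in that direction. DESeq2 on the same counts called 8 of the 20, all higher, namely Aars, Cars, Gars, Lars, Nars, Sars, Tars and Yars, and it called 1.04% of its genes higher. Limma-voom called none, and 0.651% of all genes. In the authors' deposited table the same 8 genes have an adjusted p under 0.05, as do 0.878% of its genes in that direction. The log2 fold changes below come from edgeR, each with its standard error.

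In 10 of the 20 cytosolic genes every OPE library read higher than every vehicle library, and in none was it the reverse. Over all genes tested 4.05% had groups apart with OPE higher. From these shares nothing is read about the family, since the contrast took part in its choice. The 10 genes were Aars, Cars, Gars, Lars, Mars, Nars, Sars, Tars, Vars and Yars.

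Yars, the tyrosine enzyme, whose promoter window is shown above, had the smallest p of the family. It read 171, 117, 143 and 114 CPM in OPE 1 to 4, against 86.2, 94.2, 85.9 and 96.6 CPM in vehicle 1 to 4. OPE 1 was highest, and the groups did not overlap (0.59 ± 0.13, adjusted p = 0.0734). Cars, which charges cysteine, had the largest fold change. It read 156, 97.2, 96.3 and 82.7 CPM with OPE, against 60.6, 69.3, 67.3 and 67.6 CPM with vehicle. The lowest OPE library lay above the highest vehicle library (0.71 ± 0.17, adjusted p = 0.101). Nars, for asparagine, read 214, 153, 200 and 169 CPM with OPE, against 131, 139, 134 and 130 CPM with vehicle. OPE 1 and OPE 3 were the high libraries (0.46 ± 0.11, adjusted p = 0.096).

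Lars, the cytosolic leucine enzyme, which also senses leucine for the growth kinase mTORC1, read 153, 102, 121 and 110 CPM with OPE, against 87.7, 84.5, 91.6 and 88.7 CPM with vehicle. Its groups did not overlap (0.47 ± 0.12, adjusted p = 0.121). Gars read 254, 163, 190 and 173 CPM with OPE, against 132, 139, 148 and 133 CPM with vehicle. OPE 1 was again highest and OPE 2 closest to the vehicle range (0.50 ± 0.13, adjusted p = 0.128). Tars, for threonine, read 143, 103, 134 and 112 CPM with OPE, against 97.1, 93.5, 93.3 and 91.3 CPM with vehicle. OPE 2 came closest to the vehicle range (0.39 ± 0.11, adjusted p = 0.147).

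Sars, the serine enzyme, which also charges the selenocysteine tRNA, read 255, 181, 232 and 161 CPM with OPE, against 146, 156, 150 and 145 CPM with vehicle. OPE 4 was the library nearest the vehicle range (0.48 ± 0.13, adjusted p = 0.158). Aars, the alanine enzyme, read 323, 193, 216 and 198 CPM with OPE, against 160, 165, 152 and 165 CPM with vehicle. OPE 1 stood well above the other OPE libraries (0.53 ± 0.15, adjusted p = 0.158). In mm10 coordinates Yars spans 129189760 to 129219607 on chromosome 4 and Cars 143557230 to 143600090 on chromosome 7.

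The last 2 genes with separate groups were Mars and Vars. Mars, for methionine, read 179, 107, 108 and 110 CPM with OPE, against 91.6, 82.1, 86.3 and 87.9 CPM with vehicle, so that OPE 1 stood alone (0.54 ± 0.16, adjusted p = 0.171). Its exons share 68 bases with those of Ddit3 on the opposite strand. Ddit3, which encodes the stress factor CHOP, gave 1.06 ± 0.28 (adjusted p = 0.13). Vars, for valine, an enzyme that binds elongation factor 1, read 170, 143, 143 and 130 CPM with OPE, against 119, 125, 124 and 123 CPM with vehicle. Its fold change was the smallest of the 10 (0.25 ± 0.09, adjusted p = 0.269).

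**Figure D2:**
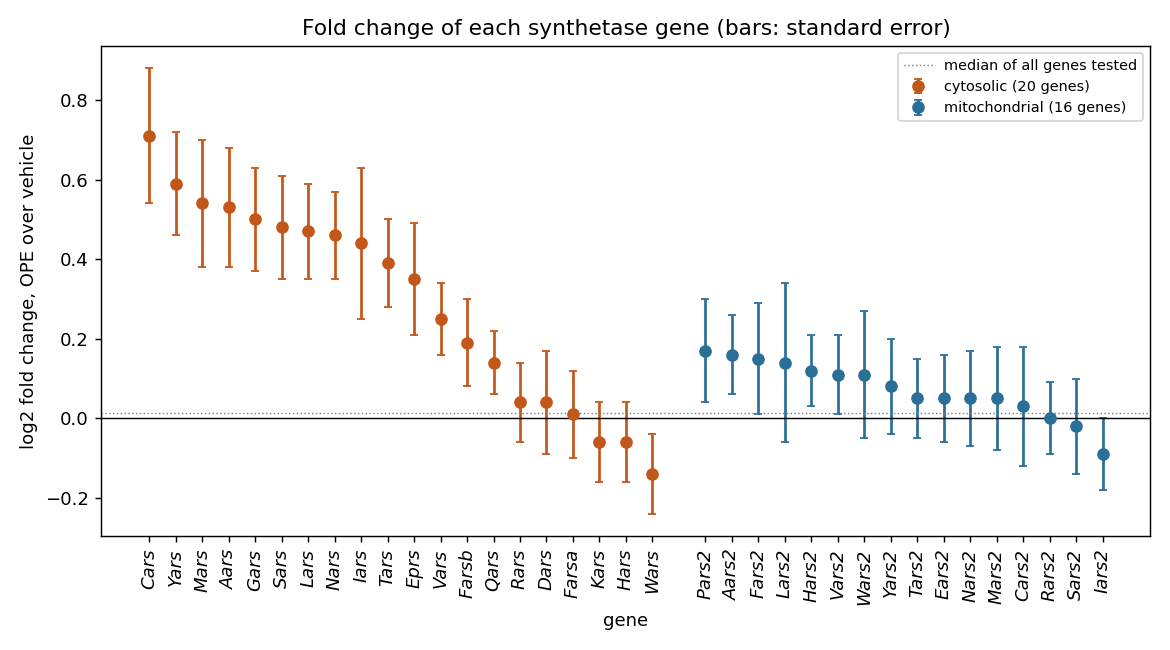
Log2 fold change of each synthetase gene, OPE over vehicle, with its standard error (edgeR, 4 libraries per group); the dotted line is the median of all 15517 genes tested. Cytosolic genes spread from -0.14 (Wars) to 0.71 (Cars), and mitochondrial genes from -0.09 (Iars2) to 0.17 (Pars2).

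The cytosolic genes did not move as 1 block. In OPE 1, 12 of the 20 lay 0.46 to 1.24 above their vehicle mean in log2 CPM, and the other 8 lay between -0.31 and 0.17, with no gene in between. The 12 are the 10 genes above with Eprs, the joint glutamate and proline enzyme (0.35 ± 0.14, adjusted p = 0.332), and Iars, the isoleucine enzyme (0.44 ± 0.19, adjusted p = 0.363). Iars read 254, 153, 115 and 172 CPM with OPE, against 143, 120, 125 and 124 CPM with vehicle, and OPE 3 was its lowest library of all 8. The 5 cytosolic genes whose promoters hold the motif were all among the 12, with log2 fold changes of 0.39 to 0.59. The 8 whose promoters were given and lack it ran from -0.06 to 0.54, and Eprs, Mars and Sars among them also belong to the 12. This grouping was seen in the values and has no test.

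The 8 others were Dars, Farsa, Farsb, Hars, Kars, Qars, Rars and Wars, with log2 fold changes from -0.14 to 0.19 and adjusted p of at least 0.502. Their levels in vehicle resembled those of the 12, with medians of 31.9 FPKM for the 8 and 30.9 FPKM for the 12. Dars, the aspartate enzyme, read 61.4, 70.8, 98.1 and 70.5 CPM with OPE, against 72.4, 73.2, 75.2 and 70.9 CPM with vehicle (0.04 ± 0.13, adjusted p = 0.933). OPE 1 was its lowest library and OPE 3 its highest. Kars read 119, 137, 162 and 147 CPM with OPE, against 145, 147, 146 and 153 CPM with vehicle (-0.06 ± 0.10, adjusted p = 0.854). Here too OPE 1 was lowest and OPE 3 highest. Wars, the tryptophan enzyme, which interferon is known to induce, read 55.6, 64.5, 54.0 and 63.3 CPM with OPE, against 55.9, 68.7, 67.1 and 68.8 CPM with vehicle (-0.14 ± 0.10, adjusted p = 0.628). Farsa and Farsb, the alpha and beta subunits of the single phenylalanine enzyme, gave 0.01 ± 0.11 and 0.19 ± 0.11 (adjusted p = 0.987 and 0.515).

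In OPE 3 the median relative to the vehicle mean was 0.46 in the 12 (-0.15 to 0.66) and 0.21 in the 8 (-0.26 to 0.49). The sets overlapped in that library, and 7 of the 8 lay above 0. The median was 0.25 in the 12 and -0.02 in the 8 in OPE 2, and 0.32 and -0.02 in OPE 4. These values subtract the same vehicle mean as the division did, so they are not an independent check of it. Deposited gene lengths differed between the sets as well, with a median of 2181 bases in the 8 and 3396 bases in the 12. A fit that removed each library's trend with gene length called Lars, Nars, Tars and Yars higher (0.973% of all genes were called higher) and gave a cytosolic median of 0.43.

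**Figure D3:**
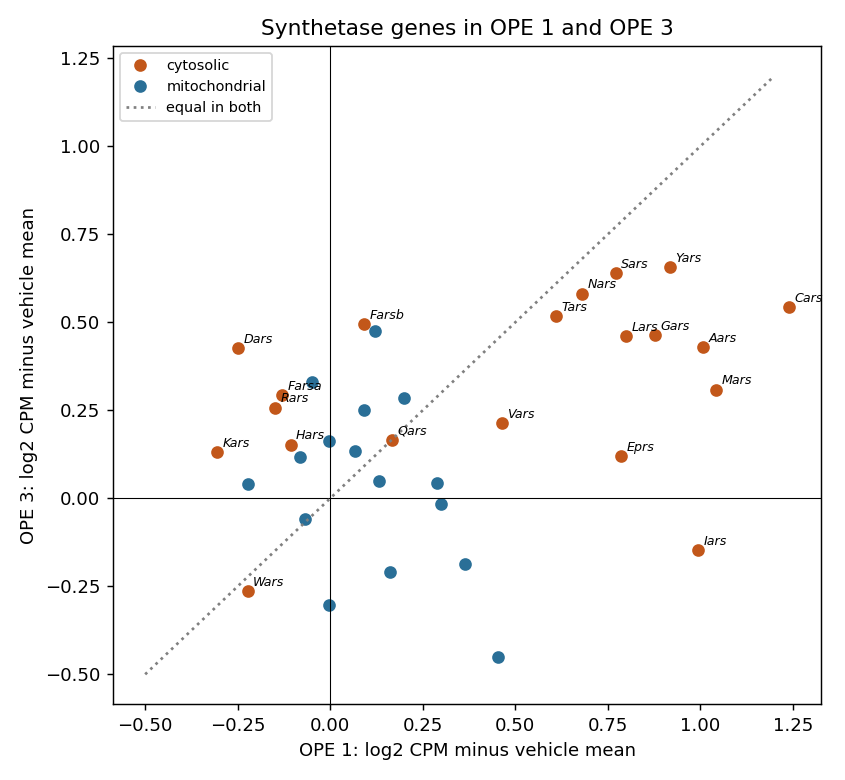
Each point is a synthetase gene, with its log2 CPM minus the vehicle mean in OPE 1 (horizontal) and in OPE 3 (vertical); cytosolic genes are named, and the dotted line marks equal values. A set of 12 cytosolic genes lies at 0.46 or more in OPE 1, apart from 8 genes between -0.31 and 0.17.

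Membership of the multisynthetase complex cut across this division. The complex holds Dars, Eprs, Iars, Kars, Lars, Mars, Qars and Rars. Eprs, Iars, Lars and Mars were among the genes high in OPE 1, and Dars, Kars, Qars and Rars were not. Separate groups with OPE higher were found in Lars and Mars of the complex and in 8 of the 12 cytosolic genes outside it. Over all genes the share was 4.05%. The median log2 fold changes were 0.24 in the complex and 0.43 outside it, and the difference was not tested. The arginine and glutamine enzymes of the complex, Rars and Qars, gave 0.04 ± 0.10 and 0.14 ± 0.08 (adjusted p = 0.926 and 0.502). Of the 3 scaffold genes none passed, beside 0.477% of all genes called by edgeR in either direction. Aimp2 read 13.6, 14.4, 17.1 and 15.8 CPM with OPE, against 19.4, 19.1, 19.8 and 19.4 CPM with vehicle, and all 4 OPE libraries were the lower ones (-0.36 ± 0.11, adjusted p = 0.185). Over all genes tested 5.44% had groups apart with OPE lower. Aimp1 and Eef1e1 gave 0.31 ± 0.18 and 0.29 ± 0.18 (adjusted p = 0.504 and 0.532), with OPE 3 the highest library for both. Aimp1 read 70.8, 66.4, 124 and 69.7 CPM in OPE 1 to 4, against 63.4 to 70.8 CPM over the vehicle libraries.

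The mitochondrial genes had log2 fold changes between -0.09 and 0.17. None of the 16 passed by edgeR, by DESeq2 or by limma-voom, which called 0.477%, 3.11% and 0.651% of all genes. None had an unadjusted edgeR p under 0.05, against 13.2% of all genes. The groups overlapped in all 16, while over all genes 4.05% were apart with OPE higher and 5.44% with OPE lower. Beside these shares, counts of 0 among 16 genes say little. Adjusted p lay between 0.546 and 0.996, and standard errors between 0.09 and 0.20. Aars2 (alanine) read 38.6, 37.8, 31.0 and 33.4 CPM with OPE, against 31.3, 34.4, 30.3 and 29.7 CPM with vehicle. OPE 1 and OPE 2 lay above the vehicle range and the other OPE libraries within it (0.16 ± 0.10, adjusted p = 0.546). Hars2 read 69.3, 72.7, 77.5 and 64.7 CPM with OPE, against 65.7, 64.3, 62.2 and 68.3 CPM with vehicle. Its OPE 4 value lay inside the vehicle range (0.12 ± 0.09, adjusted p = 0.592).

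Pars2 (proline) read 11.8, 11.8, 12.6 and 10.2 CPM with OPE, against 8.81, 10.6, 11.2 and 10.7 CPM with vehicle. Only OPE 4 lay within the vehicle range (0.17 ± 0.13, adjusted p = 0.642). Fars2, which makes the phenylalanine enzyme of mitochondria from 1 subunit, read 19.2, 18.2, 24.6 and 16.5 CPM with OPE, against 16.8, 20.5, 16.6 and 16.9 CPM with vehicle (0.15 ± 0.14, adjusted p = 0.739). OPE 3 was high and vehicle 2 stood above the other vehicle libraries. Vars2 (valine) read 32.3, 28.6, 27.3 and 25.6 CPM with OPE, against 26.4, 24.2, 27.1 and 28.2 CPM with vehicle (0.11 ± 0.10, adjusted p = 0.747). Its groups overlapped, with OPE 1 highest. The remaining 11 genes had log2 fold changes from -0.09 (Iars2) to 0.14 (Lars2). Wars2 (tryptophan) read 30.5, 23.6, 16.2 and 25.6 CPM with OPE, against 21.5, 21.4, 23.2 and 22.9 CPM with vehicle, so that OPE 1 and OPE 3 lay on opposite sides of the vehicle range.

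**Figure D4:**
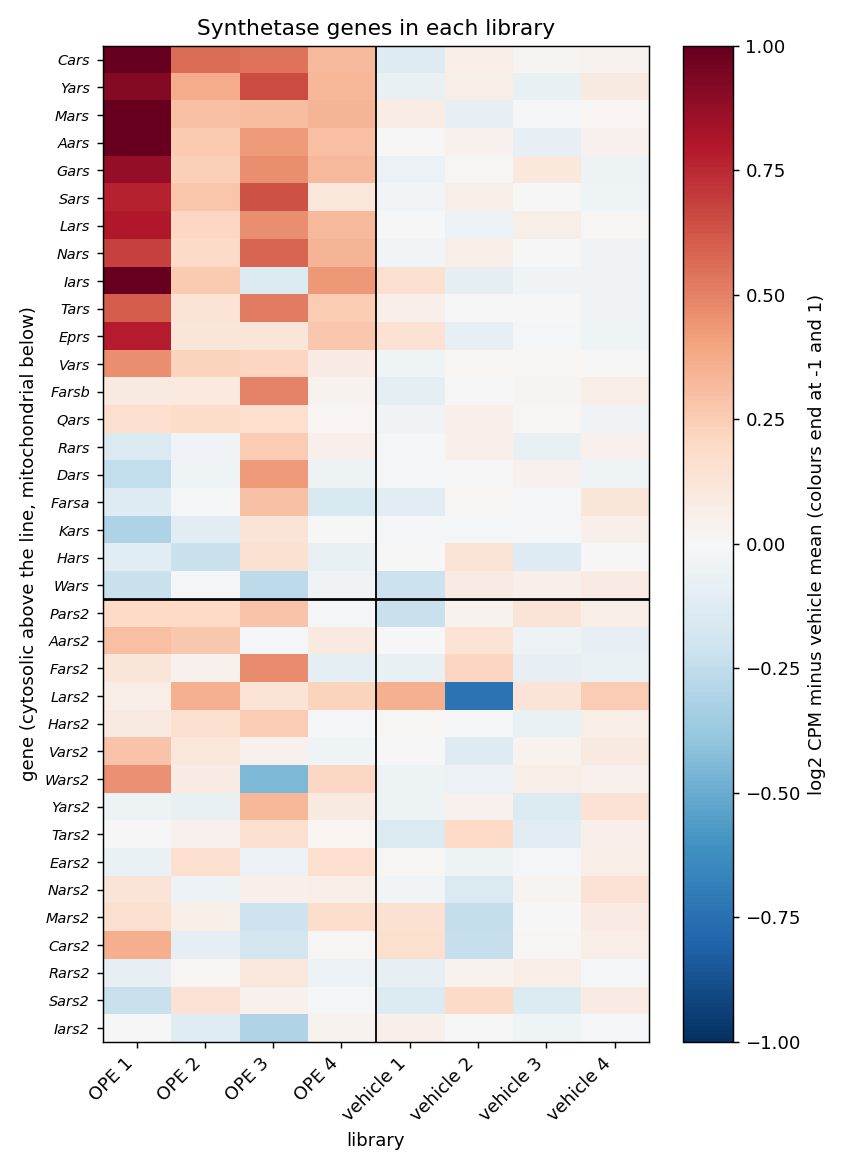
Log2 CPM minus the vehicle mean for each synthetase gene (rows, in order of fold change within each compartment) in each library (columns, OPE left of vehicle); red is above and blue below the vehicle mean, and colours end at -1 and 1. The upper 12 cytosolic rows are red in OPE 1, and the lowest single value among mitochondrial rows is Lars2 in vehicle 2.

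Set side by side, the cytosolic genes had a median log2 fold change of 0.37, the mitochondrial genes of 0.07 and all genes tested of 0.01. Fold changes above 0 were found in 17 of the 20 cytosolic genes, 13 of the 16 mitochondrial genes and 52.8% of all genes. In each library, the median of the cytosolic genes relative to the vehicle mean was 0.64, 0.19, 0.37 and 0.18 in OPE 1 to 4, against -0.02, 0.02, 0.00 and 0.01 in vehicle 1 to 4. All 4 OPE medians lay above the vehicle medians. For the mitochondrial genes these medians were 0.10, 0.07, 0.05 and 0.03 with OPE, against -0.01, -0.01, -0.01 and 0.06 with vehicle, and the groups overlapped. OPE 1 carried a large part of the cytosolic value: without it the cytosolic median was 0.20, the mitochondrial median 0.05 and their difference 0.149. Without both OPE 1 and OPE 3 the cytosolic median was 0.198. Of 13 amino acids with 1 gene per compartment, 11 had the higher fold change in the cytosolic gene. Cars and Cars2 gave 0.71 and 0.03, Yars and Yars2 gave 0.59 and 0.08, and Nars and Nars2 gave 0.46 and 0.05, whereas Hars and Hars2 gave -0.06 and 0.12 and Wars and Wars2 gave -0.14 and 0.11. Hars and Hars2 lie head to head, and their exons share 195 bases on opposite strands. The difference between the compartments was not tested.

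**Figure D5:**
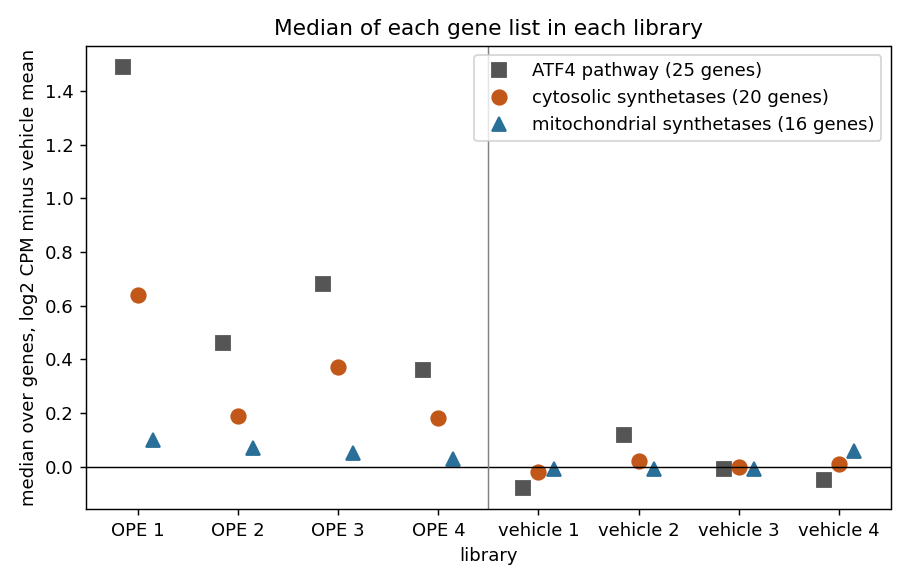
Median over genes of log2 CPM minus the vehicle mean in each library, for 25 ATF4 pathway genes (squares), 20 cytosolic (circles) and 16 mitochondrial synthetase genes (triangles). The cytosolic medians are 0.18 to 0.64 in the OPE libraries and -0.02 to 0.02 in the vehicle libraries.

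Of the 25 genes of the ATF4 pathway other than synthetases 1 rose by edgeR and 24 did not pass, where 0.0387% of all genes were called higher. The median log2 fold change of the list was 0.74, with values above 0 in 24 of its genes and in 52.8% of all genes. The list was chosen with the contrast known, so nothing is read from these shares. Nupr1, a stress-induced chromatin protein, rose to 24.4, 10.5, 16.2 and 10.2 CPM in OPE 1 to 4, against a vehicle mean of 5.62 CPM (1.45 ± 0.27, adjusted p = 0.0484), and it missed the threshold in 7 of 8 fits without 1 library, where adjusted p ran from 0.0279 to 0.159. Atf4 itself, named after its values were seen, had means of 378 CPM in OPE and 232 CPM in vehicle libraries, and all 4 OPE libraries were higher (0.70 ± 0.15, adjusted p = 0.0678). DESeq2 gave adjusted p = 4.53e-05 for Nupr1 and 0.0013 for Atf4, whereas limma-voom gave 0.0609 and 0.0715. The median of this list in each library was 1.49, 0.46, 0.68 and 0.36 in OPE 1 to 4, against -0.08, 0.12, -0.01 and -0.05 in vehicle 1 to 4. OPE 1 was highest and OPE 3 next by this median, as they were by the cytosolic synthetase median. Both lists come from the same 8 libraries and the same contrast. Among the genes for the 4 kinases of eIF2alpha none passed. EdgeR called 0.477% of all genes in either direction, so this count says little. Eif2ak2, activated by double-stranded RNA, gave -0.28 ± 0.14, and Eif2ak4, which senses uncharged tRNA, gave -0.13 ± 0.11 (adjusted p = 0.407 and 0.708). Eif2ak3, of the endoplasmic reticulum, gave 0.12 ± 0.12 (adjusted p = 0.743).

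Other genes of translation gave the following, beside 0.477% of all genes called by edgeR in either direction. None of the 13 partners of mitochondrial translation passed, and their median was 0.05. The 3 of smallest p were Mtif2, an initiation factor (0.19 ± 0.09, adjusted p = 0.415), Gatb (listed in the table as Pet112), a subunit of the amidotransferase that makes glutaminyl-tRNA in mitochondria (0.21 ± 0.12, adjusted p = 0.486), and Tsfm, an elongation factor (0.23 ± 0.17, adjusted p = 0.616). None of the 5 cytosolic elongation factor genes passed, with a median of 0.34. Eef2, Eef1g and Eef1a1 gave 0.27 ± 0.11, 0.39 ± 0.16 and 0.34 ± 0.14 (adjusted p = 0.306, 0.337 and 0.343). In each library the elongation factor median was 0.19, 0.25, 0.78 and 0.08 in OPE 1 to 4, against -0.09, 0.13, 0.02 and -0.04 in vehicle 1 to 4, so that OPE 3 and not OPE 1 was highest. Of 5 selenocysteine and editing genes none passed. Pstk, the kinase that acts on seryl-tRNA on the way to selenocysteine, gave 0.48 ± 0.17, Prorsd1, which resembles an editing domain for mischarged proline tRNA, gave 0.40 ± 0.17, and Sepsecs, the synthase of that route, gave 0.14 ± 0.09 (adjusted p = 0.246, 0.343 and 0.571).

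The summed markers of macrophages and of endothelium were lower with OPE. Over all genes edgeR called 0.438% lower with OPE and 0.0387% higher. Of 8 macrophage markers 5 fell by edgeR (Csf1r, C1qa, C1qb, C1qc and Cx3cr1) and 3 did not pass. Their summed level was 14.7 to 51.3 CPM in the OPE libraries and 115 to 134 CPM in the vehicle libraries, lowest in OPE 1, and no marker was at 0 in every library. Of 4 endothelial markers none passed, with sums of 83.7 to 163 CPM with OPE and 173 to 229 CPM with vehicle. None of the 4 ectoderm or 4 skeletal muscle markers passed, nor any of the 4 erythroid markers high enough to test of 6. The part of these cells in the synthetase values was not tested.

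Tarsl2, a relative of the threonine enzyme that is outside the family as listed, gave -0.08 ± 0.11 (adjusted p = 0.838). Exons of other counted genes overlap those of 11 of the 36, always on the opposite strand. The longest overlap joins Iars2 and Rab3gap2 (2034 bases, 22.9% of the Iars2 exon bases in GENCODE M21). How far such overlaps touch the counts is unknown, because the strand setting and the annotation of the counting are unknown here.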

How the data were processed

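Poly-A RNA of 8 libraries was sequenced, 4 per group, assigned to groups by their titles. Per the submitters' processing notes the build was mm10, and the tools were STAR 2.5, CASAVA 1.8, DESeq2 (listed as version 2) and HTSeq 0.6.1. Which tool did what, the annotation and whether strand was used were not given in the sources used here. Deposited by the authors were raw read counts per gene, the counts divided by a constant per library (a signal, between 0.80311 and 1.2451), FPKM from the gene length column and the total count, and their own log2 fold change and p-value columns, per the file headers. Signal columns were only checked.

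The test of the counts was that of edgeR 4.0.16 under R 4.3.3 (TMM, filterByExpr, robust quasi-likelihood fit, group as the only term, two-sided), adjusted over all 15517 genes tested at 0.05. The standard error is the log2 fold change divided by the square root of F. Log2 CPM has a prior count of 2. Replicates differed by more than counting noise in every pair, with a chi-square of 5.03 or more for each degree of freedom. On simulated data for this comparison with 15517 genes, 39.7% of genes changed 1.5-fold and 76.9% of those changed 2-fold were called. Same-numbered libraries of the groups had deviations correlated by 0.309, 0.0818, 0.0126 and 0.0918, so the numbers were not taken to pair them. DESeq2 1.42.0 and limma 3.58.1 were among the alternatives.

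The members, lists and settings were chosen with earlier results of these data known. Values in every library are printed for the 8 cytosolic and 5 mitochondrial genes of smallest p. Lars2, Mars, Vars, Iars, Dars, Kars, Wars, Wars2, Aimp1 and Aimp2 were added for their values. From the pathway lists all genes past the threshold, or the 3 of smallest p, are named. Promoters came from RefSeq (GRCm38.p6), and exon overlaps from GENCODE M21, which uses the same assembly as mm10. The remaining promoter window is not reported here.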

Additional observations from a re-analysis of the deposited data

Results flagged for a closer look

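Of 76 groups of 4 libraries checked for 1 outlying library, 6 were marked, and chance alone marks about 1 in 20. The value given is the gap to the nearest library as a share of the group's range. In Mars (0.962) OPE 1 was high among the OPE libraries. In Farsb (0.883) OPE 3 was high, and in Qars (0.868) OPE 4 was low. Among the vehicle libraries, Wars was low in vehicle 1 (0.866) and Fars2 was high in vehicle 2 (0.938). The median of the mitochondrial genes was high in vehicle 4 (0.926).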

How the results depend on the processing

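The cytosolic median kept its sign in all 17 alternatives, as did the mitochondrial median. Without 1 library the number of all genes called ran from 7 (without vehicle 2 or vehicle 4) to 308 (without OPE 3), the number of cytosolic genes called from 0 to 2 and of mitochondrial genes stayed 0. The cytosolic median ran from 0.202 (without OPE 1) to 0.442, the mitochondrial median from 0.046 to 0.105 and their difference from 0.149 to 0.362. Nars and Yars passed without OPE 3, and Yars without OPE 4. Without both OPE 1 and OPE 3 the cytosolic median was 0.198 and the difference 0.151.

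Library totals in place of TMM gave 131 genes called and a mitochondrial median of 0.014, and no filter gave 136 genes. DESeq2 gave 504 genes, 8 of them cytosolic synthetases. Removal of the gene length trend gave 322 genes, 4 of them cytosolic synthetases, and a mitochondrial median of 0.133; with the replicate block added these were 261, 5 and 0.133. The replicate block alone gave 62 genes and no synthetase, and same-numbered libraries were not shown to be pairs. The causes were not tested.

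Genes near 0 changed sign. With library totals Dars gave -0.01, Farsa -0.05, Rars -0.02, Cars2 -0.01, Nars2 -0.00473 and Tars2 -0.00197. Limma-voom gave -0.0034 for Farsa, and removal of the length trend 0.00746 for Rars2, and 0.0076 with the replicate block. Without OPE 1 and OPE 3 Dars gave -0.04, Farsa -0.08, Cars2 -0.05, Fars2 -0.03 and Sars2 0.06. Over the fits without 1 library, ranges that crossed 0 were -0.11 to 0.12 for Dars, -0.10 to 0.05 for Farsa, -0.13 to 0.0016 for Kars, -0.05 to 0.08 for Rars, -0.10 to 0.11 for Cars2, -0.05 to 0.25 for Lars2, -0.02 to 0.13 for Mars2, -0.00305 to 0.09 for Nars2, -0.04 to 0.02 for Rars2, -0.07 to 0.05 for Sars2, -0.000292 to 0.12 for Tars2, -0.04 to 0.26 for Wars2 and -0.01 to 0.12 for Yars2. Standard errors ran from 0.09 to 0.20 for mitochondrial genes and from 0.08 to 0.19 for cytosolic ones.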
